A study of Mus musculus with 11 samples.

Results

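Mouse embryonic stem cells were compared with mouse embryonic fibroblasts, the start and the reference state of a reprogramming experiment, on 1 array each. These are 2 of the series' 11 arrays and were chosen by their sample titles, not by any measured value. The other 9 arrays hold fibroblasts reprogrammed with Klf4, Oct4, Myc and Sox2 at days 6 and 9 (8 arrays of sorted or unsorted cells) and a partially reprogrammed line called SC4. The fibroblasts (MEF) carried a Rosa-rtTA allele on 1 chromosome (Rosa-rtTA +/-), were at passage 4 and had not been infected. The stem cells (ESC) were of the V6.5 line at passage 11 and are given no rtTA allele in the labels. MEF grew in medium with cosmic calf serum, ESC in medium with knockout serum replacement, some cosmic calf serum and the cytokine LIF, so that cell type, genotype, passage and medium cannot be told apart here. Total RNA was measured on an Affymetrix gene array. With no replicate of either, no difference below has an error or a test, and the number of arrays limits the precision. In bulk RNA, fewer cells of a type and less RNA per cell cannot be told apart.

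Mouse embryonic stem cells come from the inner cell mass of the blastocyst and divide without limit while able to form every tissue of the embryo. Their state is held by a network of transcription factors around Oct4, Sox2 and Nanog, kept active in culture by LIF, and they grow as tight epithelial colonies with a short gap phase before DNA replication. Embryonic fibroblasts are mesenchymal cells that secrete collagen, proteoglycans and matrix proteases, pull on that matrix through actin bundles and stop dividing after a few passages through the Cdkn2a products and p53.

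Values are deposited linear intensities. None lies below 100, a floor, so a value of 100 is an upper bound, values at the floor have no order, and a fold against it is given as "at least". Of 22180 named genes, 13566 lay above the floor in ESC or MEF: 11639 in both, 933 in ESC alone and 994 in MEF alone. The arrays were alike in overall signal, with 52.4% of probe sets at the floor in ESC and 53.3% in MEF, against 52.1% to 54.3% over all arrays. The median log2 difference (ESC minus MEF) was 0 over all named genes. At least 2-fold higher in ESC were 1715 genes, 7.73% of the named genes and 12.6% of those above the floor, and at least 2-fold lower were 1708, 7.7% and 12.6%. At 4-fold the counts were 488 higher, 2.2% of the named genes and 3.6% of those above the floor, and 544 lower, 2.45% and 4.01%. These shares are the background for every count of list members below. Just inside the 4-fold limit was Chaf1a, with 198 in MEF and 793 in ESC. Liph, with 100 and 399.9, was just outside in the deposited values, but its fold is a lower bound. On the lower side Rnf150, with 597 and 149, was just inside and Pik3r3, with 669 and 167, just outside.

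As a yardstick, 15.4% of named genes differed 2-fold or more either way between ESC and MEF, against 0.28% to 0.514% between day 9 and day 6 of the same reprogramming population. Those pairs are not replicates, and differ by days of culture. At 4-fold, ESC and MEF differed in 1032 genes and those pairs in 1 to 7. Among 498 genes with at least 2 probe sets above the floor, the probe sets of a gene disagreed by a median of 0.40 log2 units, and in no gene was one 2-fold higher and another 2-fold lower. With probe sets averaged, log2 differences given below were smaller by over 1.5 times in fold for Alpl (3.06), Cdh1 (2.42), Etv5 (1.74) and Krt18 (2.45). The same held for Lpl (-1.21), Mir466b-2 (1.77), Nfix (-1.51), Sall4 (1.65) and Socs2 (1.94). Also smaller by over 1.5 times, and then under 2-fold, were Plagl1 (-0.84), Slc2a1 (0.82), Slc7a11 (-0.67) and Socs3 (0.80).

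**Figure D1:**
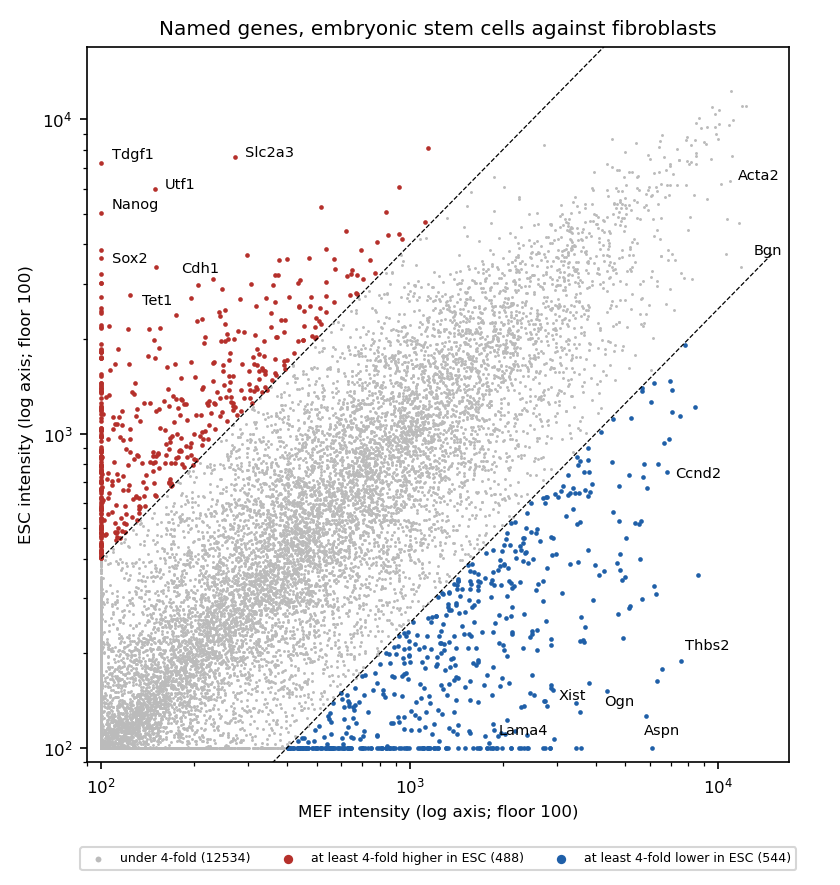
Intensity of each named gene above the floor on either array, MEF on the horizontal and ESC on the vertical axis, both log axes that start near the floor of 100; dashed lines mark 4-fold. The 488 genes in red lie at least 4-fold higher in ESC and the 544 in blue at least 4-fold lower; Tdgf1, Nanog and Sox2 sit on the left edge, at the floor in MEF, and Aspn on the lower edge, at the floor in ESC.

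Both arrays carried most markers of their label, but the stem cell marker Dppa5a, given below, had little signal on either. Tdgf1, Nanog, Utf1, Aspn and Thbs2 are among the 15 largest differences of their direction and do not stand for all markers. Tdgf1, a coreceptor for Nodal, was at the floor in MEF and 7275 in ESC, at least 72.7-fold higher. Nanog, a homeodomain factor of the core network, was at the floor in MEF and 5019 in ESC. Utf1, a chromatin-bound protein of undifferentiated cells, had 149 and 6013, a 40.3-fold difference. Aspn, a small proteoglycan that binds collagen, was 6094 in MEF and at the floor in ESC, at least 60.9-fold lower. Thbs2, a secreted thrombospondin that restrains vessel growth, had 7562 and 189, which is 39.9-fold. In MEF, Tdgf1, Nanog, Zfp42 and Esrrb were all at the floor. In ESC, Aspn and Lum were at the floor while Col1a1 (933) and Postn (356) were not.

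The Nanog promoter and 5 others, of members that differed at least 2-fold between the arrays, are shown for the motifs taken up below. Starts without a match were left out, so a motif in each promoter shown follows from the choice. Each is the 250 bases before the RefSeq start in GRCm38.p6, read 5′ to 3′ on the gene's strand, with motif matches in capitals. Shares of promoters given below were counted in a longer window, which adds the 50 bases after the start.
Nanog (chr6:122707239-122707488, plus strand): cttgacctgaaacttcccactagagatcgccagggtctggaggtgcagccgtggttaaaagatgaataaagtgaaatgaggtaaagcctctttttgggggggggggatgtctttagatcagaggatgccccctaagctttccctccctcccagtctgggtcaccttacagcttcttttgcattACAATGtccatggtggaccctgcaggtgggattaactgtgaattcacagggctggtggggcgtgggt
Fhl2 (chr1:43196762-43197011, minus strand): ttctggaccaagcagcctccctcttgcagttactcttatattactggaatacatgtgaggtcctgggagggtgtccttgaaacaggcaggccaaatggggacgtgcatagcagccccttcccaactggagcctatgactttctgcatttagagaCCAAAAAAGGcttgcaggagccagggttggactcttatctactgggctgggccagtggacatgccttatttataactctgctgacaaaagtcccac
Vcl (chr14:20929148-20929397, plus strand): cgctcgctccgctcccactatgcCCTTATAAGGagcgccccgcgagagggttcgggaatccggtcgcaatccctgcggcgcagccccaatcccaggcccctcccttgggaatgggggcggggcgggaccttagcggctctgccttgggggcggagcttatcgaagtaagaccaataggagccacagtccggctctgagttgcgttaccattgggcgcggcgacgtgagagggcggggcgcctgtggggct
Myl9 (chr2:156775214-156775463, plus strand): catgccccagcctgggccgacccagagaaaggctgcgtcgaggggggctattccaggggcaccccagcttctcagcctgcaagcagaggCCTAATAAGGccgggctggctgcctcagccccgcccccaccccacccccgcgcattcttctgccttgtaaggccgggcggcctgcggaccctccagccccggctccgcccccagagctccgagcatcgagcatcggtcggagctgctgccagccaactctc
Ddx4 (chr13:112652311-112652560, minus strand): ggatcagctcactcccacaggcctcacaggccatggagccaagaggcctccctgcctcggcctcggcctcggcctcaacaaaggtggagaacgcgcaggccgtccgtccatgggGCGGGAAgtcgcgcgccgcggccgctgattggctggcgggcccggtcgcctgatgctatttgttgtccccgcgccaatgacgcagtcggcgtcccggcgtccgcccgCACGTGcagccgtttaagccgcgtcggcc
Syce2 (chr8:84872008-84872257, plus strand): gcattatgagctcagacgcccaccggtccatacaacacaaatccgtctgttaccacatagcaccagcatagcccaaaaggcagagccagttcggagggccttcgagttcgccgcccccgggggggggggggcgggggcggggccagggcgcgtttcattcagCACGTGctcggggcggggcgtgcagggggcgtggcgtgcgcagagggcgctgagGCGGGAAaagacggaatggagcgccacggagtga

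For the microRNAs, the mature arms of precursors with the differences that the text turns on are printed with the seed, bases 2 to 8, in capitals. No arm shown shares its seed with another. The gene array measures the precursor's locus and cannot say which arm is made.
Mir290a, miR-290a-5p (chr7:3218639-3218660, plus strand): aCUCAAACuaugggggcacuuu
Mir290a, miR-290a-3p (chr7:3218674-3218697, plus strand): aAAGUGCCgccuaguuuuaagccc
Mir18, miR-18a-5p (chr14:115043867-115043889, plus strand): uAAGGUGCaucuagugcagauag
Mir199a-1, miR-199a-3p (chr9:21496498-21496519, minus strand): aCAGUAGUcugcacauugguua
Mir199a-1, miR-199a-5p (chr9:21496537-21496559, minus strand): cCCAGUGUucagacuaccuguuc
Mir382, miR-382-5p (chr12:109733781-109733802, plus strand): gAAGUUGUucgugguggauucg
Mir377, miR-377-3p (chr12:109740553-109740574, plus strand): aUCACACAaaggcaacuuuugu
Mir329, miR-329-3p (chr12:109713541-109713562, plus strand): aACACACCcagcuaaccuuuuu

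Of 43 genes of the core and naive pluripotency list, 35 were at least 2-fold higher in ESC, 28 at least 4-fold, and none was 2-fold lower. Their median log2 difference was 2.74, and 26 were at the floor in MEF. With the floor raised to 200 on both arrays, the median was 1.99. After Tdgf1, Nanog and Utf1, the largest differences were those of Sox2, Fgf4 and Dppa2. Sox2, the partner of Oct4 on DNA, was at the floor in MEF and 3829 in ESC, at least 38.3-fold. Fgf4, a growth factor that Oct4 and Sox2 activate, went from the floor in MEF to 3628 in ESC. Dppa2, a DNA-binding protein of early embryos, was at the floor and 2713.

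The factors of the naive state were also higher in ESC, by different amounts. Tfcp2l1, a target of LIF signalling, was at the floor in MEF and 1744 in ESC, and Zfp42 (Rex1), a zinc finger marker of the undifferentiated state, was at the floor and 1528. Nr0b1, an orphan nuclear receptor that binds Oct4, was at the floor in MEF and 1815 in ESC. Esrrb, another orphan receptor of the network, reached 487 in ESC from the floor, at least 4.87-fold. Klf5 was above the floor in both, at 440 and 3078, and Sall4 at 251 and 2474. Prdm14, which represses differentiation genes, had the floor and 292.

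The other 8 members of the list differed by less than 2-fold in the deposited values. For those at the floor in MEF that difference is a lower bound. Of the reprogramming factors themselves, Sox2 differed at least 2-fold and Klf4 and Myc did not, while Oct4 could not be judged. Klf4 had 704 in MEF and 834 in ESC, a log2 difference of 0.24. Myc, which is no member of the list, had 468 and 291. The Pou5f1 (Oct4) probe set had 105 and 123 and lay between 105 and 143 on all 11 arrays, near the floor, so the level of the gene cannot be read from it. Dppa3 (100 and 131) and Dppa5a (100 and 148) also had little signal on either array. Stat3, which carries the LIF signal, was above the floor in both and lower in ESC, at 3586 and 2099.

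The Sox motif CATTGT, searched on both strands, was present once in the Nanog promoter shown, 67 bases before the start. It was found in 10.7% of the 20607 promoters of the array's named genes. An exact match to the octamer ATGCAAAT was not found in the Nanog promoter and occurs in 1.61% of all. Near matches were not counted, and the bases just before the Sox motif are a near match on the other strand. The search therefore does not show that Nanog lacks an octamer site. Only 30 of the 43 list members had a promoter in the RefSeq table, 69.8%, under the 80% set as the minimum for reading a share over a list.

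**Figure D2:**
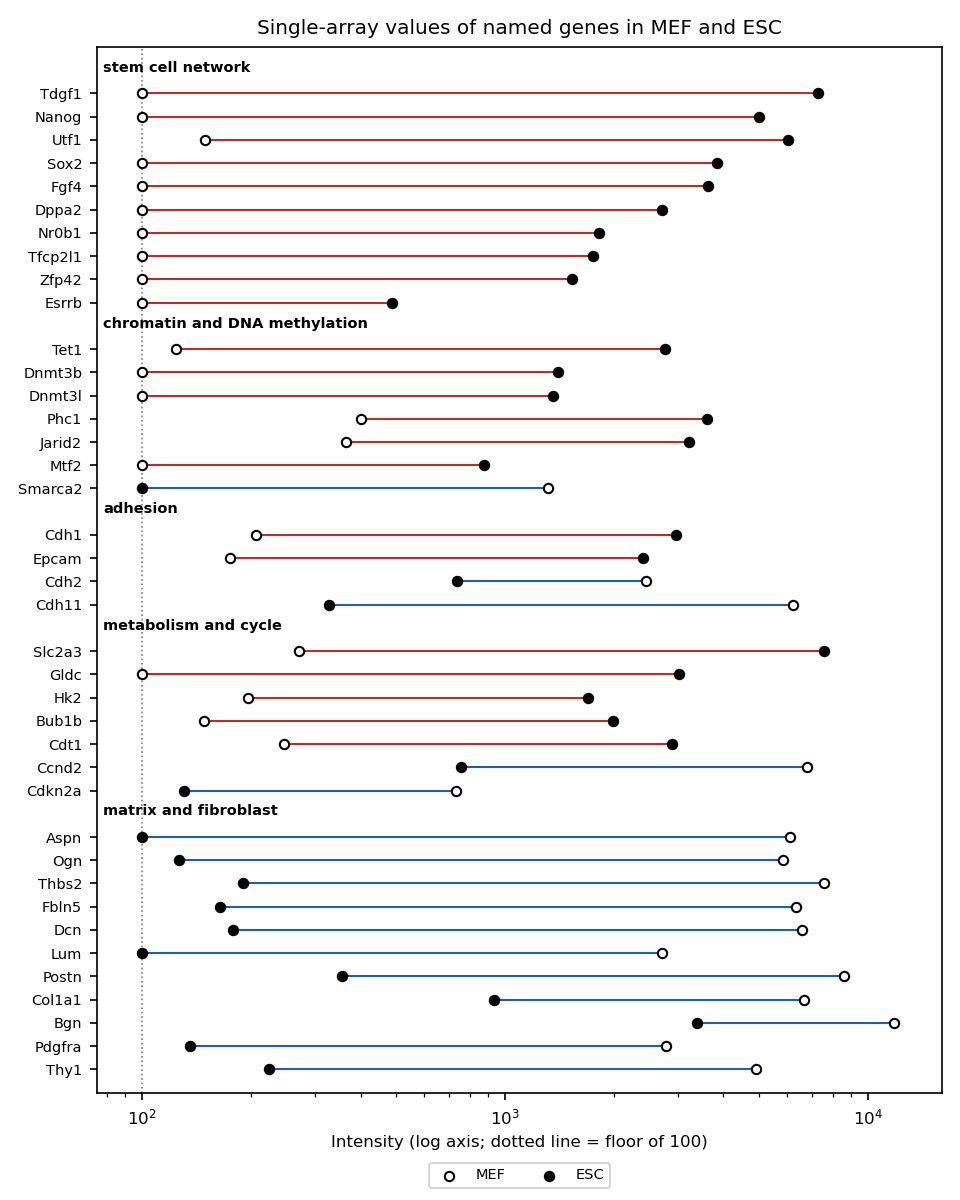
Intensity (log axis) of named genes in MEF (open circles) and ESC (filled circles), joined by a red line where ESC is higher and a blue line where it is lower; the dotted line is the floor of 100. Tdgf1, Nanog, Sox2 and Fgf4 start at the floor in MEF, Aspn and Lum end at the floor in ESC, and Bgn keeps 3380 in ESC against 11809 in MEF. Each point is 1 array.

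Signalling genes for LIF, FGF, WNT and Nodal divided, with 14 of 44 at least 2-fold higher in ESC and 9 at least 2-fold lower (median 0.13). On the ligand side, Nodal (floor in MEF, 524 in ESC) and its feedback inhibitor Lefty1 (151 and 848) were higher. Among receptors, Lifr, which binds LIF, differed little, with 925 and 1207, and its partner Il6st was lower in ESC, with 5359 and 1774. Downstream, the feedback inhibitor Socs2 was higher in ESC, at 365 and 2626, and Socs3 at 335 and 974. Etv5, a transcription factor induced by FGF signalling, was 255 in MEF and 2080 in ESC. The receptor Fgfr1 was 2570 and 1232. WNT pathway members of the fibroblast side included Dkk3, a secreted relative of WNT inhibitors, at 2698 and 294, and Wnt5a, a ligand that acts without beta-catenin, at 485 and the floor. Ctnnb1, beta-catenin itself, was 3737 and 3743.

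The enzymes of DNA methylation and its removal were higher in ESC in 8 of 17 cases, and 1, Zbtb4, a reader of methylated DNA, was at least 2-fold lower (441 and 156). The list median was 0.89. Tet1, which oxidises methylcytosine, had 124 in MEF and 2762 in ESC, a 22.3-fold difference. Tet2 had 523 and 1879, while Tet3 had 445 and 379, so the family did not differ as a unit. Dnmt3b, a methyltransferase that sets new marks, was at the floor and 1402, and its cofactor Dnmt3l at the floor and 1357. Dnmt1, which copies marks at replication, was above the floor in both, at 794 and 2753, and its guide Uhrf1 at 277 and 2125.

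Among 42 chromatin repressors and remodellers, 20 were at least 2-fold higher in ESC and 2 at least 2-fold lower (median 0.88). Several Polycomb genes were among the higher ones. Phc1, a subunit of the first Polycomb complex, had 400 and 3592. Jarid2 and Mtf2, which bring the second complex to DNA, had 366 and 3206, and 100 and 875. The catalytic subunit Ezh2 had 696 and 3835, and its core partners Suz12 and Eed had 676 and 2792, and 525 and 1377. Trim28, a corepressor of retroelements, was 1835 and 4698, and Setdb1, the methyltransferase it recruits, 448 and 1399. Smarca2 and Smarca4 are alternative motors of the BAF remodelling complex. Smarca2 was 1311 in MEF and at the floor in ESC, at least 13.1-fold lower, while Smarca4 was 2240 and 3319. BAF subunit Smarcc2 was 1009 and 397, and its relative Smarcc1 1042 and 1977. Ring1, by contrast with Phc1 from the same complex, had 263 and 205.

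Epithelial junction genes were higher in ESC in 25 of 41 cases, none was 2-fold lower, and the median was 1.46, or 0.77 with a floor of 200. Cdh1, the cadherin that joins epithelial cells, had 206 in MEF and 2962 in ESC, a 14.4-fold difference. Epcam, an epithelial adhesion protein, had 174 and 2393. Cldn4, a tight junction claudin, had 102 and 1157. The membrane protease St14 was at the floor and 1179, and Spint1, which inhibits it, 127 and 1341. Keratin 18 (Krt18) was at the floor and 980. Tight junction scaffold Tjp1 (1198 and 1682) and plakoglobin (Jup, 1004 and 1098), which mesenchymal cells also make, differed little. Mesenchymal cadherins ran the other way. Cdh11 had 6209 and 327, and Cdh2, N-cadherin, 2444 and 736.

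Genes of the extracellular matrix were lower in ESC in each of the lists below. Of 27 fibrillar and network collagens, 15 were at least 2-fold lower in ESC, 13 at least 4-fold, and none was 2-fold higher (median -1.84). Col12a1, which decorates fibrils, had 6290 and 308, a 20.4-fold difference. Col10a1, known from growth plate cartilage, had 1986 and the floor. The chains of type I collagen, Col1a1 and Col1a2, had 6664 and 933, and 5618 and 528. Col3a1 had 2862 and 213. Among basement membrane chains, Col4a1 had 1004 and 280, and Col18a1 differed little, at 264 and 327.

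Of 14 small leucine-rich proteoglycans, which bind collagen fibrils and set their spacing, 9 were above the floor on either array and each of these was at least 2-fold lower in ESC. Ogn had 5832 and 126, a 46.2-fold difference, and Dcn, decorin, 6584 and 178, a 36.9-fold difference. Lum, lumican, had 2708 and the floor. Biglycan (Bgn) had 11809 and 3380, a smaller difference of 3.49-fold.

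In the matricellular and elastic fibre list, 27 of 36 were at least 2-fold lower in ESC and 1, the basement membrane protein Nid2, was just over 2-fold higher (868 and 1751), which it no longer was after centring or quantile normalization. The median was -2.03. Fbln5, which assembles elastic fibres, had 6347 and 164. Ccn3 was 3577 and at the floor, at least 35.8-fold lower, and its relatives Ccn4 and Ccn5 had 2736 and 141, and 3673 and 217. Postn, periostin, had 8567 and 356. Not all members of the family went this far: Ccn1 and Ccn2 had 5734 and 2249, and 3029 and 1352, and Thbs1 had 10588 and 3743 beside the 39.9-fold of Thbs2. Fibronectin (Fn1) was above the floor in both, at 10894 and 6379, and stayed under 2-fold.

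Matrix proteases and their inhibitors were at least 2-fold lower in ESC in 21 of 25 cases, with none 2-fold higher (median -2.21). Mmp13, a collagenase, was 3454 and at the floor. Adamts5, which cuts aggrecan, had 2944 and 107. Stromelysin Mmp3 had 1430 and the floor, and the gelatinase Mmp2 7774 and 1911. The inhibitor Timp3 had 5560 and 400, and Timp1 5565 and 2395. Proteases and inhibitors of such enzymes were both lower in ESC.

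Contractile and actin genes differed less than matrix genes. Of 32, 13 were at least 2-fold lower and only 2 at least 4-fold, with a median of -0.82. Fhl2, a LIM protein of actin fibres, had 2484 and 236, and Cald1, caldesmon, 2738 and 600. Myl9, the light chain of contractile myosin, had 3886 and 1283, and vinculin (Vcl), which links actin to integrins, 4209 and 1987. Smooth muscle actin Acta2 was 10221 and 6236, Vim, vimentin, 11101 and 7654, and Cnn3 7127 and 6716, each under 2-fold. Desmin (Des), with 251 and 1427, and the LIM protein Csrp2, with 370 and 1140, were the members at least 2-fold higher in ESC. The CArG box, the binding motif of serum response factor, was found in 7 of 34 promoters of the list (20.6%), against 1.45% of all 20607, with 27 of 32 members having a promoter in the table. Of the 6 genes that hold it, Cnn2, Fhl1, Fhl2, Myl9, Srf and Vcl, 4 were at least 2-fold lower in ESC. It lies 96 bases before the start in the Fhl2 promoter shown, 227 in Vcl and 161 in Myl9. Srf itself had 851 and 977 and Fhl1 693 and 603.

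Mesenchymal transcription factors were at least 2-fold lower in ESC in 29 of 51 cases (median -1.21), and Tbx3, which is also a naive pluripotency factor, was the 1 member at least 2-fold higher (477 and 1243). Osr1, a zinc finger factor of limb and kidney mesenchyme, had 4354 and 151, a 28.7-fold difference. Tbx15, a factor of limb and skin mesenchyme, had 2301 and the floor, and Prrx1, a limb homeobox factor, 5138 and 280. Snai2, Slug, had 3769 and 427, against 518 and 194 for Snai1. Twist2 had 897 and the floor, and Zeb1, a repressor of Cdh1, 466 and 104. Nuclear factor I genes were lower as a family, with Nfia at 1245 and 105, Nfix at 1554 and 231, Nfib at 2373 and 501 and Nfic at 922 and 354.

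Hox genes, which specify position along the body axis, were at least 2-fold lower in ESC in 12 of 36 cases, with none 2-fold higher, and 17 were at the floor in ESC. With a floor of 200, 5 were 2-fold lower. Hoxc6 had 1164 and the floor, Hoxc8 1601 and 186, and Hoxd13, of the distal limb, 960 and 115. Hoxb9 had 963 and 270. Most other members were weak on both arrays, and their differences rest on values near the floor.

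**Figure D3:**
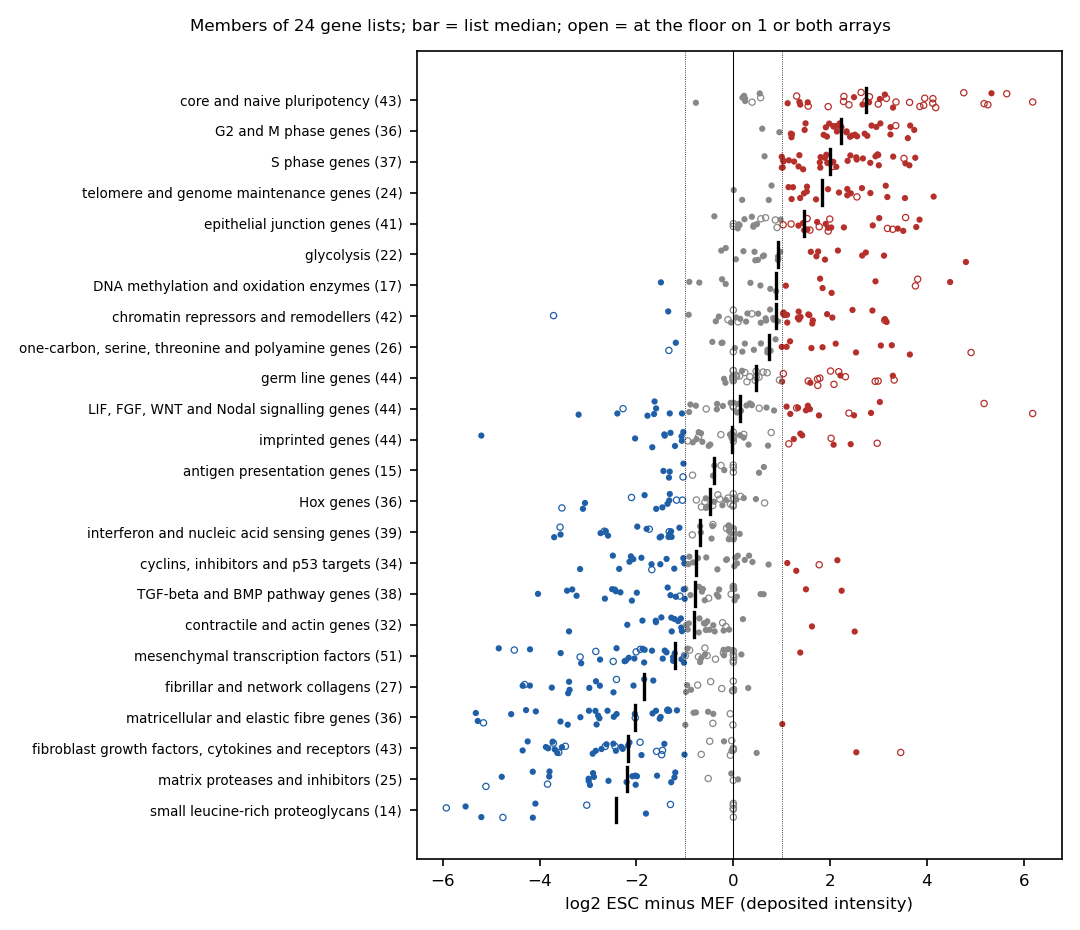
Log2 difference, ESC minus MEF, of each measured member of 24 gene lists (number of members in brackets); black bars are list medians, red and blue points differ at least 2-fold, and open points were at the floor on 1 or both arrays, where the difference is a lower bound or has no value. Pluripotency, cell cycle and genome maintenance lists have medians of 1.83 to 2.74 and the matrix lists of -1.84 to -2.42.

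Growth factor, cytokine and receptor genes of fibroblasts were at least 2-fold lower in ESC in 30 of 43 cases and at least 4-fold in 23 (median -2.18). Pdgfra, a receptor that marks mesenchyme, had 2775 and 136, a 20.4-fold difference, and Pdgfrb 4806 and 413. Ccl7 and Cxcl12, chemokines, had 2909 and 153, and 3934 and 296. Igf1 was 1314 and at the floor. A ligand and its receptor ran in opposite directions for Kit, the receptor of stem cell factor: Kit was at the floor in MEF and 1099 in ESC, while its ligand Kitl was 380 and at the floor. Igfbp2, an IGF-binding protein, was 394 and 2292 while Igfbp5 was 2972 and 414 and Igfbp7 7523 and 1139.

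In the TGF-beta and BMP pathway 17 of 38 genes were at least 2-fold lower in ESC and 2 at least 2-fold higher (median -0.80). Among ligands, Tgfb3 had 5020 and 464, Tgfb1 1841 and 343, and Bmp7 132 and 623, the reverse. The type II receptor Tgfbr2 had 1876 and 114, a 16.4-fold difference, whereas Tgfbr1 had 509 and 402. The BMP antagonist Grem1 had 2007 and 213. Smad2, which carries the signal, had 1776 and 1791, and the inhibitory Smad7 362 and 1025.

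Cell cycle genes were almost all higher in ESC. Of 37 S phase genes, 36 were at least 2-fold higher and 19 at least 4-fold (median 2.00), and of 36 G2 and M phase genes 34 were at least 2-fold higher and 25 at least 4-fold (median 2.23). Cdt1, which loads the replicative helicase, had 245 and 2888, and Cdc6, its partner, the floor and 1152. Helicase subunit Mcm5 had 621 and 4417. Lig1, the ligase of replication, had 142 and 1765, and Hells, a chromatin remodeller that aids DNA methylation, 123 and 1666. Of mitotic genes, the checkpoint kinase Bub1b had 148 and 1981, a 13.3-fold difference, and Birc5, survivin, 104 and 1304. Mki67, the usual proliferation marker, had 670 and 2804. Rrm1 (2185 and 3417) and Bub3 (2202 and 3332) were among those under 2-fold.

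Regulators of the cycle differed in both directions, with 14 of 34 cyclins, inhibitors and p53 targets at least 2-fold lower in ESC and 4 at least 2-fold higher. Ccnd2, cyclin D2, had 6792 and 757, an 8.97-fold difference, against 2847 and 1601 for Ccnd1 and 2085 and 3456 for Ccnd3, so the D cyclins differed one from another. Ccne1, the S phase cyclin E, had 564 and 2248. The inhibitors Cdkn2a (731 and 130), Cdkn2b (1210 and 325) and Cdkn2c (643 and 199) were lower in ESC. Cdkn1a, p21, had 7552 and 3243, while Cdkn1b, p27, had 741 and 668. The pocket protein Rbl2 had 601 and 144, Rbl1 313 and 679, and Rb1 889 and 948.

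Telomere and genome maintenance genes were at least 2-fold higher in ESC in 20 of 24 cases, with none 2-fold lower (median 1.83). Blm, the Bloom helicase, had 122 and 2148, a 17.6-fold difference. Msh6, of mismatch repair, had 149 and 1745, and Rif1, a telomere and replication timing protein, 215 and 1949. Terf1, which coats telomeres, had 252 and 2232, whereas its relative Terf2 had 555 and 631. Telomerase reverse transcriptase (Tert) had 178 and 308, under 2-fold, and Dkc1, which stabilises telomerase RNA, 473 and 2546.

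Replication-dependent histone genes, a list chosen after their values were seen, were at least 2-fold higher in 11 of 26 cases, and in 7 with a floor of 200. H2ac1, a testis-type H2A, had 151 and 3392, and H2bc12 374 and 3208. These copies are near-identical in sequence and their signals may be shared.

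Metabolic genes were followed in a pair of lists. Of 22 glycolysis genes, 9 were at least 2-fold higher and none 2-fold lower (median 0.93). Slc2a3, a high-affinity glucose transporter, had 271 and 7571, a 28.0-fold difference, and the ubiquitous transporter Slc2a1 2724 and 8268. Hexokinase Hk2 had 196 and 1696 while Hk1 had 398 and 413. Downstream enzymes varied, from Aldoc, an aldolase, at 407 and 2716 to Gapdh at 8434 and 9751 and Pkm at 5422 and 8414. In one-carbon and amino acid metabolism 11 of 26 were at least 2-fold higher and 2 at least 2-fold lower (1 with probe sets averaged), with a median of 0.74. Gldc, which cleaves glycine, was at the floor and 3011, at least 30.1-fold, and Amt, another subunit of the same complex, 106 and 1331. Shared subunits Gcsh (206 and 210) and Dld (1119 and 945) did not follow. The cytosolic Shmt1 had 111 and 1071 and the mitochondrial Shmt2 2850 and 4653. The cystine transporter Slc7a11 was 252 and at the floor.

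Interferon and nucleic acid sensing genes were at least 2-fold lower in ESC in 18 of 39 cases, with none 2-fold higher (median -0.68). Sting1, an adaptor of cytosolic DNA sensing, had 2095 and 161, a 13.0-fold difference. The RNA sensors Ifih1 and Ddx58 had 634 and the floor, and 1751 and 443. Irf9, which carries the interferon signal, had 1120 and 180, and the interferon-stimulated Ifit1 and Usp18 1194 and the floor, and 1662 and 140. Mavs, the adaptor of RNA sensing, had 1331 and 1240, and Irf3 341 and 320. Of 15 antigen presentation genes, 5 were at least 2-fold lower, and 3 with a floor of 200. B2m, the shared light chain, had 11640 and 4683, while the class I heavy chain H2-K1 had 871 and 1349.

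Germ line genes were partly present in ESC. Of 44, 12 were at the floor on both arrays, 16 were at least 2-fold higher in ESC and none 2-fold lower, and 37 were at the floor in MEF. With a floor of 200, 9 were at least 2-fold higher. Mael, of transposon silencing, was at the floor and 1001. Syce2, of the synaptonemal complex, had 242 and 2376. The RNA-binding Dazl was at the floor and 796, and the helicase Ddx4 at the floor and 763. Others stayed low, such as the meiotic Sycp1 at 127 and Tdrd1 at 110 in ESC. The E-box CACGTG, which occurs in 8.08% of all 20607 promoters, lies 29 bases before the start in the Ddx4 promoter shown and 88 bases before it in that of Syce2. The E2F motif GCGGGAA, in 6.00% of all, lies apart from it, at 136 and 34 bases. Of 12 list members with an E-box in the window, 4 were at least 2-fold higher in ESC. Promoters were found for 35 of 44 members, 79.5%, just under the 80% set as the minimum for reading a share over a list.

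Genes of the two-cell-like state, which mark a small fraction of a stem cell culture, were at least 2-fold higher in 6 of 19 cases, and 8 were at the floor on both arrays. Zscan4e was at the floor in MEF and 3009 in ESC, Zscan4b at the floor and 1931, and Zscan4c at the floor and 1366. These genes are close copies and their signals cannot be assigned to single members. The other copies Usp17le (floor and 661) and Usp17la (floor and 161) were also seen in ESC.

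Imprinted genes, expressed from 1 parental allele, divided evenly, with 8 of 44 at least 2-fold higher in ESC and 10 at least 2-fold lower (median -0.02). Phlda2, a growth-restraining gene of placenta, was at the floor and 785. Peg10, a retrotransposon-derived gene, had 392 and 2106, and the transporter Slc38a4 1121 and 4714. In the other direction the largest difference was that of Dcn, given above with the proteoglycans, at 6584 and 178. Ndn, necdin, had 1234 and 302, and Plagl1 1108 and 347. The growth factor Igf2 had 2436 and 908, and its clearing receptor Igf2r 3629 and 1360. Allelic expression is not measured here, so whether a listed gene such as Dcn is imprinted in these cells cannot be said.

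Most microRNA precursors had no signal: 343 of 483 were at the floor on both arrays, 13 were at least 2-fold higher in ESC and 9 at least 2-fold lower, or 6 and 4 with a floor of 200. Of 19 stem cell microRNAs, Mir18, of the cluster that also encodes miR-17, had the floor and 256, and Mir290a, of the cluster most abundant in mouse stem cells, the floor and 225. Of 35 fibroblast and differentiation microRNAs, Mir199a-1, a mesenchymal microRNA, had 217 and the floor, and 28 were at the floor on both. Such signals are near the floor, and under a floor of 200 each of these differences was below 2-fold.

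A pair of clusters, chosen after their values were seen, held more of the differences. Between Dlk1 and Dio3, an imprinted region, 6 of 43 precursors were at least 2-fold lower in ESC and none 2-fold higher. Mir382 had 583 and 190, Mir377 534 and 197 and Mir329 685 and 307, the loci whose mature sequences are printed above. The long transcript Rian, of the same region, had 1960 and 1410, under 2-fold. Whether any of these loci is processed from it was not examined. Within Sfmbt2, 6 of 22 precursors were at least 2-fold higher in ESC and 12 were at the floor on both. With a floor of 200, 3 were at least 2-fold higher. Mir669j was at the floor and 789, Mir466b-2 at the floor and 580 and Mir669k at the floor and 557. The host gene Sfmbt2 was at the floor in MEF and 406 in ESC. Precursors of this cluster are near-identical copies, so their signals are not independent.

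**Figure D4:**
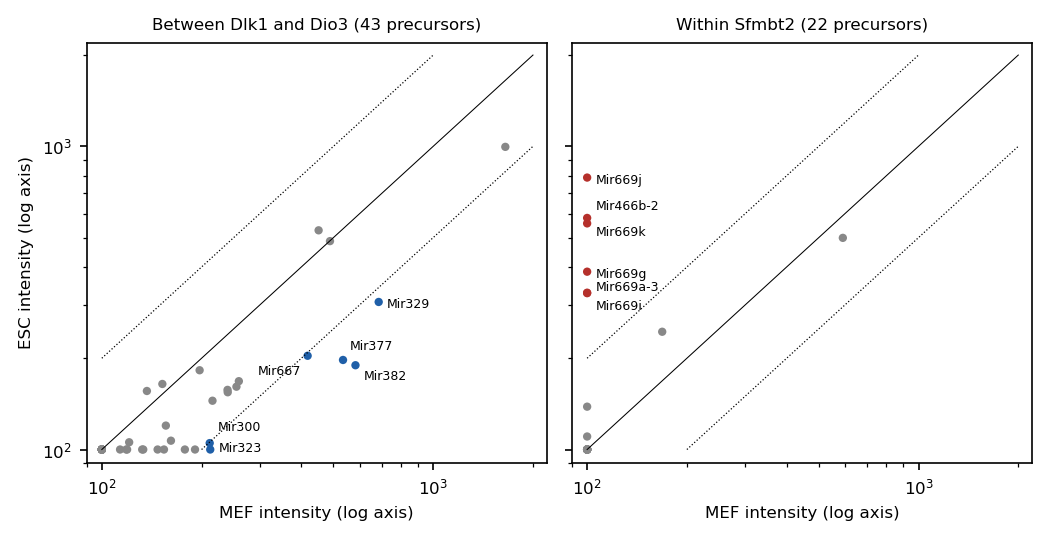
Intensity of microRNA precursors in MEF and ESC, both log axes, for the 43 between Dlk1 and Dio3 (left) and the 22 within Sfmbt2 (right); the solid line marks equality and dotted lines 2-fold. The 6 blue precursors on the left lie at least 2-fold lower in ESC, the 6 red ones on the right lie at least 2-fold higher and at the floor in MEF.

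Surface proteins used to follow reprogramming differed in both directions, with 11 of 41 at least 2-fold higher in ESC and 15 at least 2-fold lower. Alkaline phosphatase (Alpl), the classical stain for stem cell colonies, was at the floor and 1854, and integrin Itga6 217 and 2029. Thy1, a fibroblast marker lost early in reprogramming, had 4926 and 224, a 22.0-fold difference, and the adhesion molecule Vcam1 1861 and 119. Cd44 was 397 and at the floor, and Icam1 415 and 1258. The study's sorting markers, Nt5e (CD73) and Itga4 (CD49d), had 495 and 250, and 333 and 131.

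Markers of other cell types differed in both directions, many of them near the floor. Of 11 macrophage and blood markers, 9 were at the floor in MEF, 9 in ESC and 8 on both arrays. The summed intensity of the list was 1372 in MEF and 2306 in ESC. Of 13 keratinocyte markers, 9 were at the floor on both (sums 1822 and 1772), and the 12 endothelial markers, 1 at least 2-fold higher in ESC and 2 lower, summed to 2009 and 2149. Among 20 muscle markers (sums 3050 and 5291), Actc1, cardiac actin, was at the floor and 1228, while Myf5, Myod1 and Myog stayed under 200. In the neural list (sums 9570 and 9484) Stmn2, a tubulin-binding protein of neurons, had 361 and 2981 and Sox1, an early neural factor, the floor and 501, with Pax6 at 105 and 161, while Map2, of dendrites, was lower, at 670 and 177. Among 20 adipocyte, cartilage and bone markers (sums 4836 and 4216), 11 were at the floor in MEF, 15 in ESC and 8 on both. At least 2-fold higher in ESC were 2, among them Alpl, given above as a stem cell stain, at the floor and 1854. Lower were 4, among them lipoprotein lipase (Lpl, 1554 and 297), the cartilage factor Sox9 (865 and 186) and the fatty acid carrier Fabp4 (415 and the floor). Of 22 primitive endoderm and trophoblast markers (sums 9818 and 8425), 7 were at the floor on both, 4 were at least 2-fold higher in ESC and 3 lower. Krt18, given above, differed most upward and Dab2, an endocytic adaptor, most downward, at 1990 and 423, while the endoderm factors Gata6 (260 and 265) and Gata4 (108 and 165) stayed under 2-fold. The part of these cells in the results was not tested.

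Xist, the RNA that coats the inactive X chromosome, had 3550 in MEF and 130 in ESC, and was 3371 to 5530 on the 8 reprogramming arrays. The Y-linked genes Eif2s3y and Uty were at the floor in MEF and in each of the 8 reprogramming samples, and had 849 and 439 in ESC. In SC4 they had 625 and 672, with Xist at the floor. The labels give no sex, and cell type and the difference in Xist and Y-linked genes cannot be told apart.

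Of 15 housekeeping genes, 13 were within 2-fold (median 0.20). Actb had 4214 and 3995 and Eef1a1 10051 and 9674. The exceptions were B2m and Tfrc, the transferrin receptor, which had 241 and 2443.

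Among all genes outside predicted genes and short RNAs, the 15 largest differences in each direction also held some genes of no list above. On the ESC side these were the zinc finger genes Zfp981 (floor and 3212) and Zfp980 (floor and 2423), which are near copies of each other, the RhoA-regulating Arhgap19 (floor and 2505) and the solute carrier Slc35f2 (floor and 2457). On the MEF side they were C1qtnf3, a secreted C1q relative (2849 and the floor), Dpt, dermatopontin of the matrix (2849 and the floor), the matrix protein Abi3bp (2737 and the floor) and the glycoprotein Gpnmb (3452 and 139).

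At 16-fold, 30 such genes were higher in ESC and 65 lower, and their values on the other arrays are set beside these. With a floor of 200 and predicted genes included, the counts were 8 and 22. Of the 30, 10 had no reprogramming array above the floor and 12 were at the floor in SC4, with Tdgf1, Sox2, Zfp981 and Zscan4e at the floor on all 9. Nanog was above the floor on 2 of them, at 120 in unsorted and 167 in CD73- cells of day 9. Utf1 ran from 225 to 1012 on the reprogramming arrays. Sox2 was at the floor there although it was an introduced factor. Klf4, another introduced factor, had 3476 to 4134 on these arrays, against 704 in MEF. Whether the Sox2 probe set detects the introduced copy was not tested. SC4 lay within 2-fold of ESC in 1 of the 30 and within 2-fold of MEF in 15. Of the 65, 3 had no reprogramming array above the floor and 42 were at the floor in SC4. SC4 lay within 2-fold of ESC in 54 of the 65 and within 2-fold of MEF in 4. Lama4, a laminin chain, had 2407 in MEF and 2991 in SC4 but was at the floor in ESC, and Tbx15 had 1473 in SC4. These genes were chosen for their difference between MEF and ESC, so the counts on the other arrays are a description. The median of the 65 in ESC was 111 and that of the 30 in MEF was 100. Many of the values within 2-fold were thus at or near the floor on both arrays. The share of all named genes in which SC4 lay within 2-fold of ESC or MEF was not computed.

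**Figure D5:**
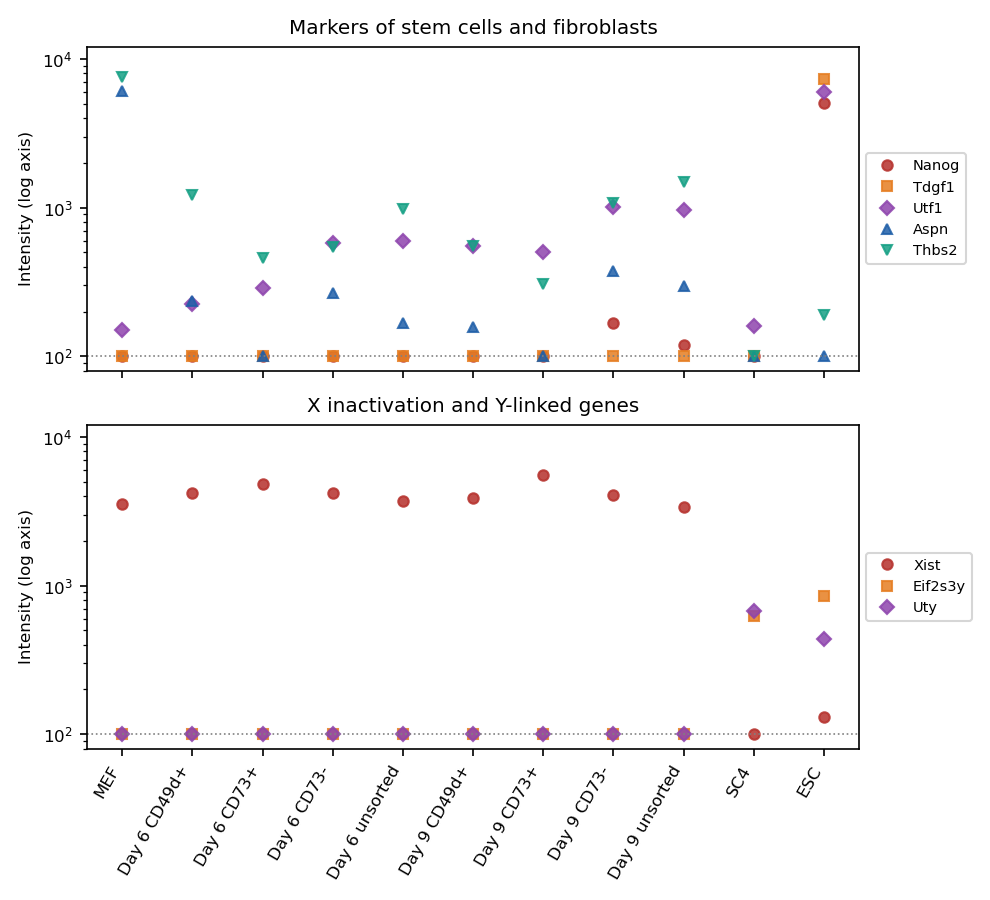
Intensity (log axis) of 5 markers (top) and of Xist and 2 Y-linked genes (bottom) on all 11 arrays; each point is 1 array and the dotted line is the floor of 100. Tdgf1 is above the floor in ESC alone and Aspn is highest in MEF, at 6094, while Xist is at 130 in ESC and at the floor in SC4, the arrays where the Y-linked genes are above the floor.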

How the data were processed

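Intensities of 41345 probe sets on 11 Affymetrix arrays, linear with a floor of 100, were deposited by the authors in 1 table. The software was Partek (version not given), per the submitters' processing notes. The sources used here do not give how probe sets were summarised, corrected for background, scaled or floored. No scaling was added. The log2 of the deposited intensity was taken, and ESC minus MEF was counted at 2-fold, 4-fold and 16-fold, with no test. Genes were named from the platform annotation where a probe set had 1 symbol (23521 probe sets; 1814 had several and 16010 none), with symbols updated by gene identifier to a RefSeq table of GRCm38.p6 for 23328. A gene with several probe sets (1082 of 22180) was represented by the one of highest mean over all arrays. Promoters and mature microRNAs come from RefSeq tables of that assembly; 9 of 15 microRNAs named by the rule had a mature sequence there.

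The gene lists, motifs and members were chosen with earlier results of these data known, and the histone, zinc finger and microRNA cluster lists and the list of all microRNA precursors after their values were seen. Named were the 5 markers, the 4 reprogramming factors, the 15 largest differences in each direction and, per list, up to 6 members with the largest difference each way, plus members explained by role. Counting was tested on simulated data. Python 3.11.15, numpy 2.4.6, pandas 2.3.3 and matplotlib 3.10.9 were used. Alternatives were centring, quantile normalization, other probe set rules, a floor of 200, and leaving out predicted genes and short RNAs.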

Additional observations from a re-analysis of the deposited data

Results flagged for a closer look

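Probe sets that carry no symbol, or several, entered no comparison above, yet some differed strongly between the arrays. Among 16010 without a symbol, 124 were at least 4-fold higher in ESC than in MEF, 4 of them at least 16-fold, and 42 were at least 4-fold lower, 5 of them at least 16-fold. Among 1814 with several symbols, 80 were at least 4-fold higher in ESC, 8 of them at least 16-fold, and 19 were at least 4-fold lower, 1 of them at least 16-fold. That 1 probe set is annotated to the interferon-inducible genes Ifi211 and Ifi204 and had an intensity of 2385 in MEF and the floor of 100 in ESC. The 8 higher ones are annotated to families of similar genes: Zscan4 copies, the group of Zfp600, Zfp980 and Rex2, and Gm4340 with its relatives. Several of the last had identical values, so the 8 are not separate observations.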

How the results depend on the processing

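The floor limits every fold: with it raised to 200, the genes at least 16-fold higher in ESC went from 31 to 8 and those at least 16-fold lower from 65 to 22, while the 4-fold counts went from 488 to 343 and from 544 to 423. It also lowered the median of the pluripotency list from 2.74 to 1.99 and of the epithelial list from 1.46 to 0.77. Of 86 counts of list members at 2-fold, 14 moved by over 1.5 times under that floor, 3 under centring, 2 under quantile normalization and 1 with averaged probe sets. The counts over all genes were within 1.5 times under the other alternatives run, and no named gene or list median at least 2-fold from 0 changed sign. Centring each array moved the median of genes above the floor to -0.05 and the share of 2-fold calls that were higher in ESC from 50.1% to 46.3%, and quantile normalization to 46.4%. Averaging the probe sets of a gene moved 33 of 922 single values, among them the neighbours Fmod, to -2.36, and Prelp, to -2.04. No paired analysis was possible because each group has 1 array, and for the same reason no replicate could be left out.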

Other observations

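Some of the genes at least 4-fold apart lie next to each other in RefSeq gene order (GRCm38.p6, 18984 protein-coding genes measured). There were 32 neighbouring pairs in which both were higher in ESC and 41 in which both were lower, and 9 runs of at least 3 genes. The higher runs were Zfp980, Zfp600, Zfp992, Zfp981 and Rex2, the group Gm7762, Gm10324, 2410141K09Rik and Zfp640, the Zscan4b, Zscan4c and Zscan4d copies, and Triml1, Triml2 and Zfp42. The first 3 of these are families of similar zinc finger genes, whose copies this array need not tell apart. The lower runs joined genes of different kinds, such as the collagens Col3a1 and Col5a2 with Gulp1, an engulfment adaptor, the proteoglycans Prelp and Fmod with Btg2, and the growth factor Pdgfc with Glrb and Ctso. No share expected by chance was computed.

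Over all 362 genes with Zfp names, 41 were at least 2-fold higher in ESC and 13 at least 2-fold lower (5 with a floor of 200), with a median log2 difference of 0.02, and 53 were at the floor on both arrays.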
